A study of Ptychodera flava with 31 samples.

Results

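The step from the 16-32 cell embryo to the early blastula was examined in the acorn worm Ptychodera flava, a hemichordate whose embryo develops into a planktonic larva called the tornaria. It was covered by 4 of the 31 libraries of a developmental series of 16 stages, chosen by their titles: 2 libraries of 16-32 cell embryos and 2 of early blastulae. All were made from polyA-selected RNA of whole wild-type animals, and no treatment, parent or culture is given in the labels. Libraries of 1 stage are named as biological replicates in the labels, without their source, and the p-values rest on the variation among these libraries, which may be technical. Each library gave estimated counts and TPM (counts divided by effective length and scaled to the same total in each library) for 35854 transcript models. Of these, 13117 had 0 estimated counts in both 16-32 cell libraries and are called absent here, and the other 22737 are called present.

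An egg is loaded with RNA made by the mother, and cleavage divisions run largely on this store. Transcription from the embryo's own genome then begins, a step called zygotic genome activation, while part of the maternal RNA is destroyed. In the fly Drosophila, many of the first genes switched on are short and have few introns. The files hold no gene names, and 0 of the 35854 identifiers occurred in the reference table of 38920 genes, so that models are described by level, length and stage course and no known zygotic gene could be checked. In polyA-selected libraries, new transcription and the lengthening of the polyA tail of stored RNA cannot be told apart. All levels are shares of the RNA sequenced, not amounts per embryo, and in whole embryos fewer cells of a type and less RNA per cell cannot be told apart.

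The total of estimated counts was 12442920 and 15046512 in the 16-32 cell libraries and 11539946 and 12369881 in the early blastula libraries, within the range of the whole series (11539946 to 17288661). A count of 3, the limit that a count of 0 allows in 1 library, stood for 0.310 and 0.266 CPM (counts relative to the library total, scaled with TMM factors) at the 16-32 cell stage. The early blastula values were 0.303 and 0.272 CPM. Intervals and limits of this kind cover counting error only. Models with any estimated count numbered 20575 and 21108 at the 16-32 cell stage and 23385 and 23581 in the early blastula, so that both later libraries lay above both earlier ones.

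Rises into the early blastula were most frequent among models already present at a low level, and falls among models that were abundant. A call required a change of 2-fold or more and p under 0.05 after Benjamini-Hochberg adjustment of edgeR's quasi-likelihood test, over 30661 models that passed a filter on low counts. By this rule 5477 models rose (17.9% of those tested) and 4067 fell (13.3%), 31.1% in all. Of the models that rose, 4574 were present and 903 were absent at the 16-32 cell stage. Absent models can only rise, so that their count is a description and not a finding about them. With limma on log2(TPM + 1), which damps changes at low levels, 3571 rose and 3597 fell.

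The share of models called changed with the starting level. Among absent models, 10.3% of 8742 tested were called higher. Present models with 3 summed counts or fewer were called higher in 23.6% of 3868, and 0 were called lower. A fall from so few counts can hardly be called, so shares called lower are limited by detection at low levels. Those with more counts but a mean under 1 TPM were called higher in 33.9% of 4536 and lower in 5.51%. From 1 to 10 TPM, 1469 of 5659 were higher and 18.9% lower, and from 10 to 100 TPM 9.46% were higher and 35.4% lower. At 100 TPM or more, 59 of 1535 models rose (3.84%) and 509 fell (33.2%). The starting level is itself part of this contrast, so the same was computed by the level in the unfertilized egg, a single library outside it.

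By egg level the order was the same, and detection limits the called falls of models with few counts here too. Of 9837 tested models with 0 counts in the egg, 9.84% were called higher in the early blastula and 0.122% lower. Of 7445 models above 0 but under 1 TPM in the egg, 2235 rose and 343 fell (4.61%), the widest gap in favour of rises. From 1 to 10 TPM in the egg, rises (23.6%) and falls (22.6%) were about equally frequent. From 10 to 100 TPM, 11.2% rose and 33.5% fell, and at 100 TPM or more 6.74% rose and 29.4% fell. More than 1 in 2 models were not called at any egg level above 1 TPM (53.8%, 55.3% and 63.9%).

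**Figure D1:**
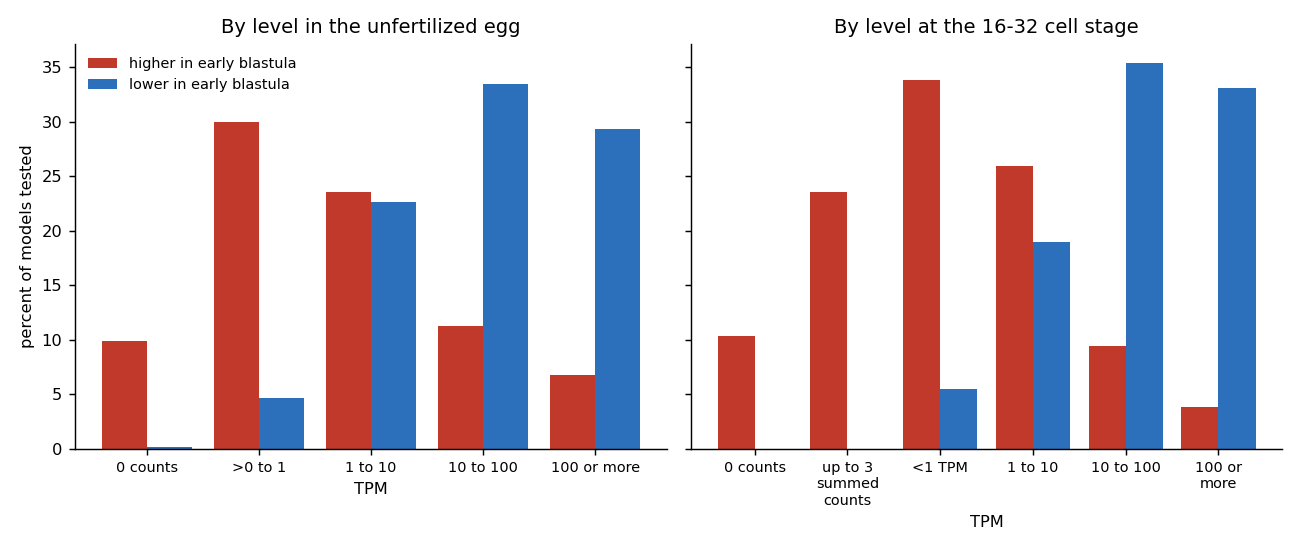
Bars give the percent of tested models called higher (red) or lower (blue) in the early blastula than at the 16-32 cell stage, grouped by TPM in the 1 egg library (left) and by mean TPM in the 2 16-32 cell libraries (right). Rises are most frequent at low starting levels (2235 of 7445 models above 0 and under 1 TPM in the egg) and falls at high ones (33.5% at 10 to 100 TPM).

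In shares of all TPM, the exchange was large for the models already present. Present models called higher held 3.92% and 3.80% of TPM in the 16-32 cell libraries and 15.3% and 17.6% in the early blastula libraries. In the early blastula 162 of the 4574 held 50% of the TPM of this group, and its 10 most abundant held 2.54% of all TPM. Models called lower held 21.9% and 20.7% of TPM at the 16-32 cell stage and 6.27% and 5.66% in the early blastula. The 21117 tested models that were not called held 74.1% and 75.5% at the earlier stage and 78.2% and 76.5% at the later one. These shares follow from the calls and are given as a description. By starting level, models present at 1 to 10 TPM went from 2.41% ± 0.0869 to 5.28% ± 0.341 of TPM (SD, n = 2 each). Those at 100 TPM or more went from 74.8% ± 0.921 to 71.7% ± 1.31. By egg level the share of models at 100 TPM or more was 66.6% ± 1.23 and 66.5% ± 1.16, with overlapping libraries. The absent models together held 0.220% and 0.260% of TPM in the early blastula libraries, or 0.159% and 0.187% of estimated counts. The mean of 0.240% was 0.436% and 0.474% with absence judged without 16-32 cell replicate 1 and 2.

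**Figure D2:**
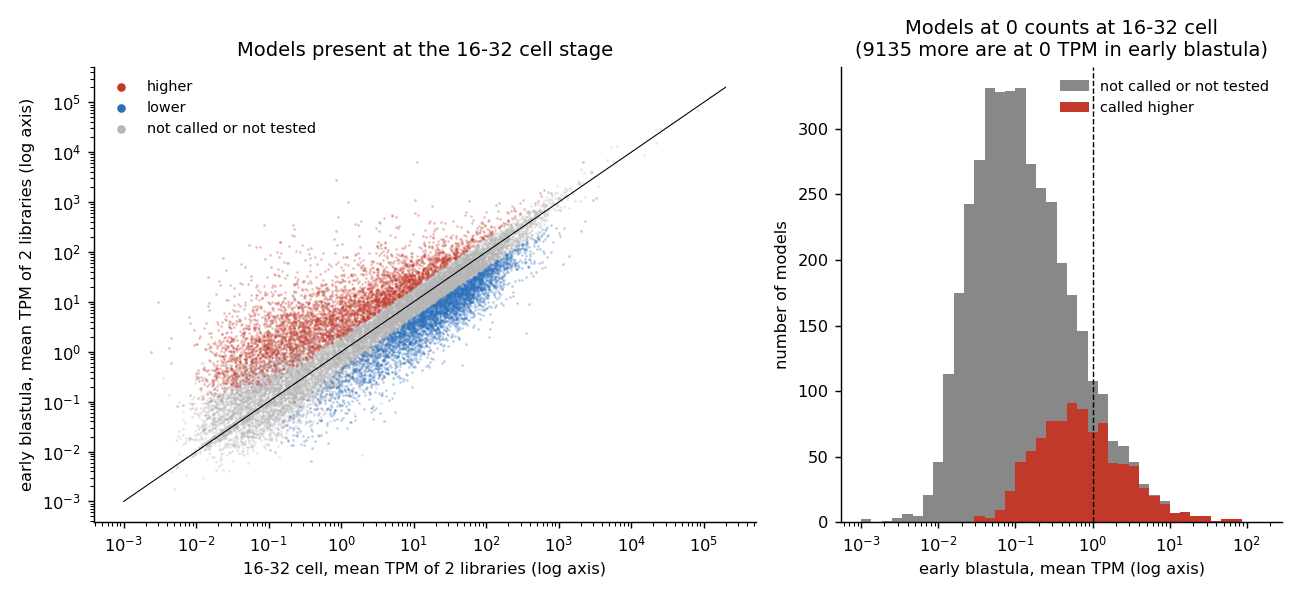
Left, each point is 1 model present at the 16-32 cell stage, red for the called rises and blue for the called falls. Its mean TPM there is on the horizontal axis and its early blastula mean on the vertical axis (both log axes, line of equality). Present models at or close to 0 TPM at either stage are not drawn, among them 1443 with 0 counts in both early blastula libraries. Of these 1443, 68 were called lower. Right, the histogram gives the early blastula TPM (log axis) of absent models above 0 there, with called rises in red and a dashed line at 1 TPM; 402 absent models lie at 1 TPM or more and none at 100 TPM.

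Absence was largely shared between libraries. Of 15279 models at 0 in 16-32 cell replicate 1, 85.8% were at 0 in replicate 2 as well, and 199 had more than 3 counts there. Of 14746 at 0 in replicate 2, 89.0% were also at 0 in replicate 1, and 96 had more than 3 counts. The egg library, which the definition did not use, was at 0 for 11493 of the 13117 absent models. For the 1624 absent models with egg counts above 0, the median was 1 count, and 42 reached 1 TPM. Besides the absent models, 69 present models had under 0.5 estimated counts in both libraries.

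Most absent models were still not detected in the early blastula. In that stage 9135 of them (69.6%) had 0 counts in both libraries, 1894 were above 0 and under 0.1 TPM, and 1686 lay between 0.1 and 1 TPM. A mean of 1 TPM or more was reached by 402 models (3.06%): 329 between 1 and 5 TPM, 43 between 5 and 10 TPM, 27 between 10 and 50 TPM and 3 between 50 and 100 TPM. No absent model reached 100 TPM, a level that 1288 present models held or exceeded. Among the 30 absent models at 10 TPM or more, all 30 were called higher. Of the 402, 326 were called higher, 39 were tested and not called, and 37 did not pass the filter.

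The 2 early blastula libraries gave similar but not equal sets. Replicate 1 held 377 absent models at 1 TPM or more and replicate 2 held 457, with 296 shared, which is 78.5% of the first and 64.8% of the second. Models chosen at 1 TPM in replicate 1 had a median of 2.23 TPM there and 2.12 TPM in replicate 2. Models chosen in replicate 2 had medians of 1.98 TPM there and 1.54 TPM in replicate 1. At 10 TPM, 26 models were shared of 28 in replicate 1 and 35 in replicate 2. The sets also depended on the earlier libraries: with absence judged without 16-32 cell replicate 1, 622 models reached 1 TPM, and without replicate 2 the number was 753.

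Against the limit that a count of 0 allows, taken as 3 counts over both 16-32 cell libraries together (0.143 CPM), 1072 absent models were at least 2-fold higher in the early blastula. Of these, 298 were at least 8-fold, 55 at least 32-fold and 14 at least 100-fold higher. The median lower bound over the 402 models at 1 TPM was 8.51-fold. These bounds are set by the depth of the 16-32 cell libraries.

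The border between absent and present was gradual. A mean of 1 TPM in the early blastula was reached by 3.06% of models with 0 counts at the 16-32 cell stage. It was reached by 11.7% of the 2296 models with up to 1 summed count, by 18.4% of the 2235 with more than 1 and up to 3, and by 30.2% of the 2482 with more than 3 and up to 10. The share at 10 TPM or more went from 0.229% through 1.44% and 1.70% to 4.71%. Models with 0 counts in the egg made up 87.6% of the absent class and 62.4%, 41.2% and 16.6% of these neighbours. With 3 summed counts or fewer counted as absent, 1083 models reached 1 TPM and the class held 0.675% of early blastula TPM.

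Absent models that reached 1 TPM were short. Their median length was 692.5 bases (middle 50% from 420.25 to 1116.75), against 1961 bases for present models at 1 TPM or more in the early blastula and 1832 bases for all models tested. Models under 500 bases made up 33.1% of the 402, against 8.82% of the present ones. The difference was there at each level below 50 TPM: from 1 to 5 TPM the medians of absent and present models were 732 and 2166 bases, from 5 to 10 TPM 528 and 2345 bases, and from 10 to 50 TPM 722 and 2064 bases.

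Length and detection were linked, and the size of this difference depended on how absence and arrival were defined. A total of 3 counts over both 16-32 cell libraries stood for a median of 0.759 TPM in models under 500 bases, 0.113 TPM in models of 1000 to 2000 bases and 0.026 TPM in models of 4000 bases or more. Of models under 500 bases 50.9% were absent, against 10.9% of those of 4000 bases or more. With at least 10 counts in each early blastula library in place of 1 TPM, 274 absent models had a median length of 1282.5 bases, against 2233 bases for present models by the same criterion. With 1 threshold on TPM for all lengths, the 436 models under 0.5 TPM at the 16-32 cell stage that reached 5 TPM had a median of 1322.5 bases. Those that went from 0.5 to 5 TPM to at least 5 TPM had 1924.5 bases (n = 1340), and those at 5 TPM or more at both stages had 1836 bases (n = 8354). The order, with models rising from the lowest levels shorter, was the same by these 3 definitions, and the part of detection in it was not tested.

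Among models at 1 TPM or more in the egg, longer ones were called lower more often. From 10 to 100 TPM in the egg, 23.3% of 1611 models under 1000 bases were called lower in the early blastula, 33.9% of 2894 models of 1000 to 4000 bases and 47.3% of 1111 models of 4000 bases or more. At 100 TPM or more in the egg the shares were 21.4%, 33.6% and 58.3% (56 of 96). From 1 to 10 TPM they were 14.6%, 22.5% and 29.3%. Rises ran the other way at each egg level, with 16.8%, 10.8% and 4.23% from 10 to 100 TPM. The median log2 fold change of all tested models in that range was -0.14 under 1000 bases, -0.46 from 1000 to 4000 bases and -0.94 at 4000 bases or more. Models are not independent replicates, so these shares are given without a test.

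The median length was 2509 bases for models that fell and 1992 bases for present models that rose. Models of 4000 bases or more held 8.93% and 8.37% of TPM in the 16-32 cell libraries and 6.41% and 6.25% in the early blastula libraries, without overlap. Models under 500 bases held 39.9% and 41.9% at the earlier stage and 44.3% and 45.1% at the later one. With other scalings, the share of models of 4000 bases or more called lower was 26.5% (DESeq2 size factors) and 21.6% (library totals), against 10.1% and 7.73% of models under 1000 bases. When models were matched on mean CPM over the 31 libraries, the order held from 10 CPM upward (34.6% against 8.10% at 30 to 100 CPM) and was reversed in all 3 bins below 10 CPM (7.11% against 10.4% at 1 to 3 CPM). Fragments, as far as effective lengths give them, averaged 214.1 and 212.8 bases in the 16-32 cell libraries and 212.7 and 215.2 bases in the early blastula libraries, so that the stages overlapped.

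**Figure D3:**
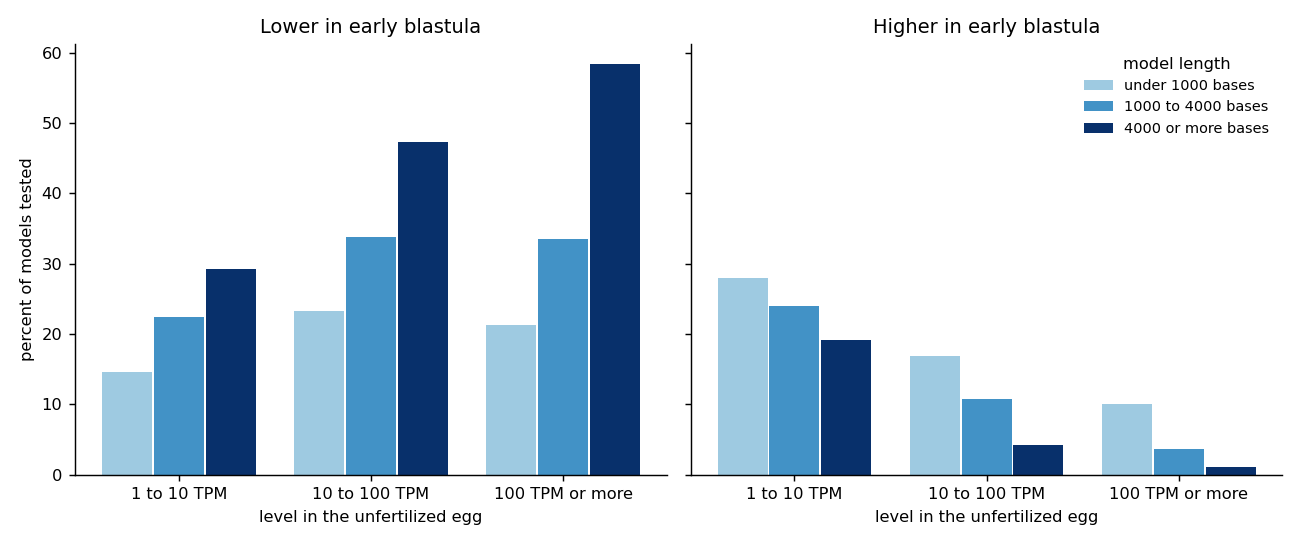
Bars give the percent of tested models called lower (left) or higher (right) in the early blastula, by TPM in the 1 egg library and by model length (light to dark blue). At each egg level the share called lower is highest for models of 4000 bases or more, up to 58.3%, and the share called higher is lowest for them.

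A few models show the extremes of the comparison. They were chosen by the values of the same libraries, so their p-values are a description. TCONS_00045260, a model of 399 bases, had the highest early blastula TPM among the absent models that were called. It had 0 counts in the egg and in both 16-32 cell libraries, and 143 and 210 counts in the early blastula, which are 68.0 and 92.1 TPM. This was at least 118-fold higher than the limit of 3 counts over both 16-32 cell libraries. The largest such bound over all absent models was 762-fold, in another model. The edgeR adjusted p was 0.000223, which is no test of its rise, since absence at the 16-32 cell stage was part of the choice. In the late blastula it stood at 24.6 and 48.8 TPM, below both early blastula libraries. In the early gastrula it had 7.37 and 15.3 TPM in replicates 1 and 2 and 0 in replicate 3. From Heider to Agassiz larvae it lay between 0.404 and 3.04 TPM (1 to 7 counts), and in the single adult library at 17.5 TPM.

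TCONS_00042573, a model of 3438 bases, had the largest rise among models with at least 10 CPM at the 16-32 cell stage. It had 6 counts in the egg, 108 and 104 counts at the 16-32 cell stage, and 11773 and 10201 counts in the early blastula. In TPM the level was 0.161 in the egg library, 3.48 and 2.65 in 16-32 cell embryos and 345 and 273 in the early blastula, where the groups lay far apart. In CPM the mean went from 10.2 ± 1.37 to 1058 ± 187 (SD, n = 2 each), and the log2 fold change was 6.70 ± 0.28 (SE), with an adjusted p of 1.05e-12 in edgeR. The level was higher still in the late blastula (1852 and 1348 TPM) and the early gastrula (1327 to 1683 TPM). It was 58.5 and 87.3 TPM in the mid gastrula after mesoderm migration and at most 14.7 TPM in each library from the late gastrula onward.

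Of models that fell, TCONS_00044224, of 2320 bases, was the most abundant at the 16-32 cell stage. Its TPM was 3501 in the egg library, 3406 and 3207 in 16-32 cell embryos and 1252 and 1193 in the early blastula, so that the stages did not overlap. The mean CPM went from 7209 ± 96.2 to 2736 ± 128 (SD, n = 2 each), and the log2 fold change was -1.40 ± 0.32 (SE), with an adjusted p of 0.00125 in edgeR. The level was lower at each later embryonic stage mean down to the late gastrula (mean 88.3 TPM), and stood at 5.09 TPM in the adult.

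TCONS_00027398, of 324 bases, had the largest fall among models with at least 10 CPM at the 16-32 cell stage. It stood at 325 TPM in the egg, 394 and 305 TPM at the 16-32 cell stage and 2.15 and 2.61 TPM in the early blastula. The early blastula values are 3.03 and 3.98 estimated counts, near the limit of 3 counts, so the size of the fall is uncertain. Its mean CPM was 46.7 ± 5.96 and 0.333 ± 0.0421 (SD, n = 2 each), and the log2 fold change was -7.09 ± 0.82 (SE), with an adjusted p of 6.12e-07 in edgeR. In the late blastula it had under 1 count in each library. It was measured again from the early gastrula onward, at 1.63 to 27.8 TPM there and 4.89 TPM in the adult.

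**Figure D4:**
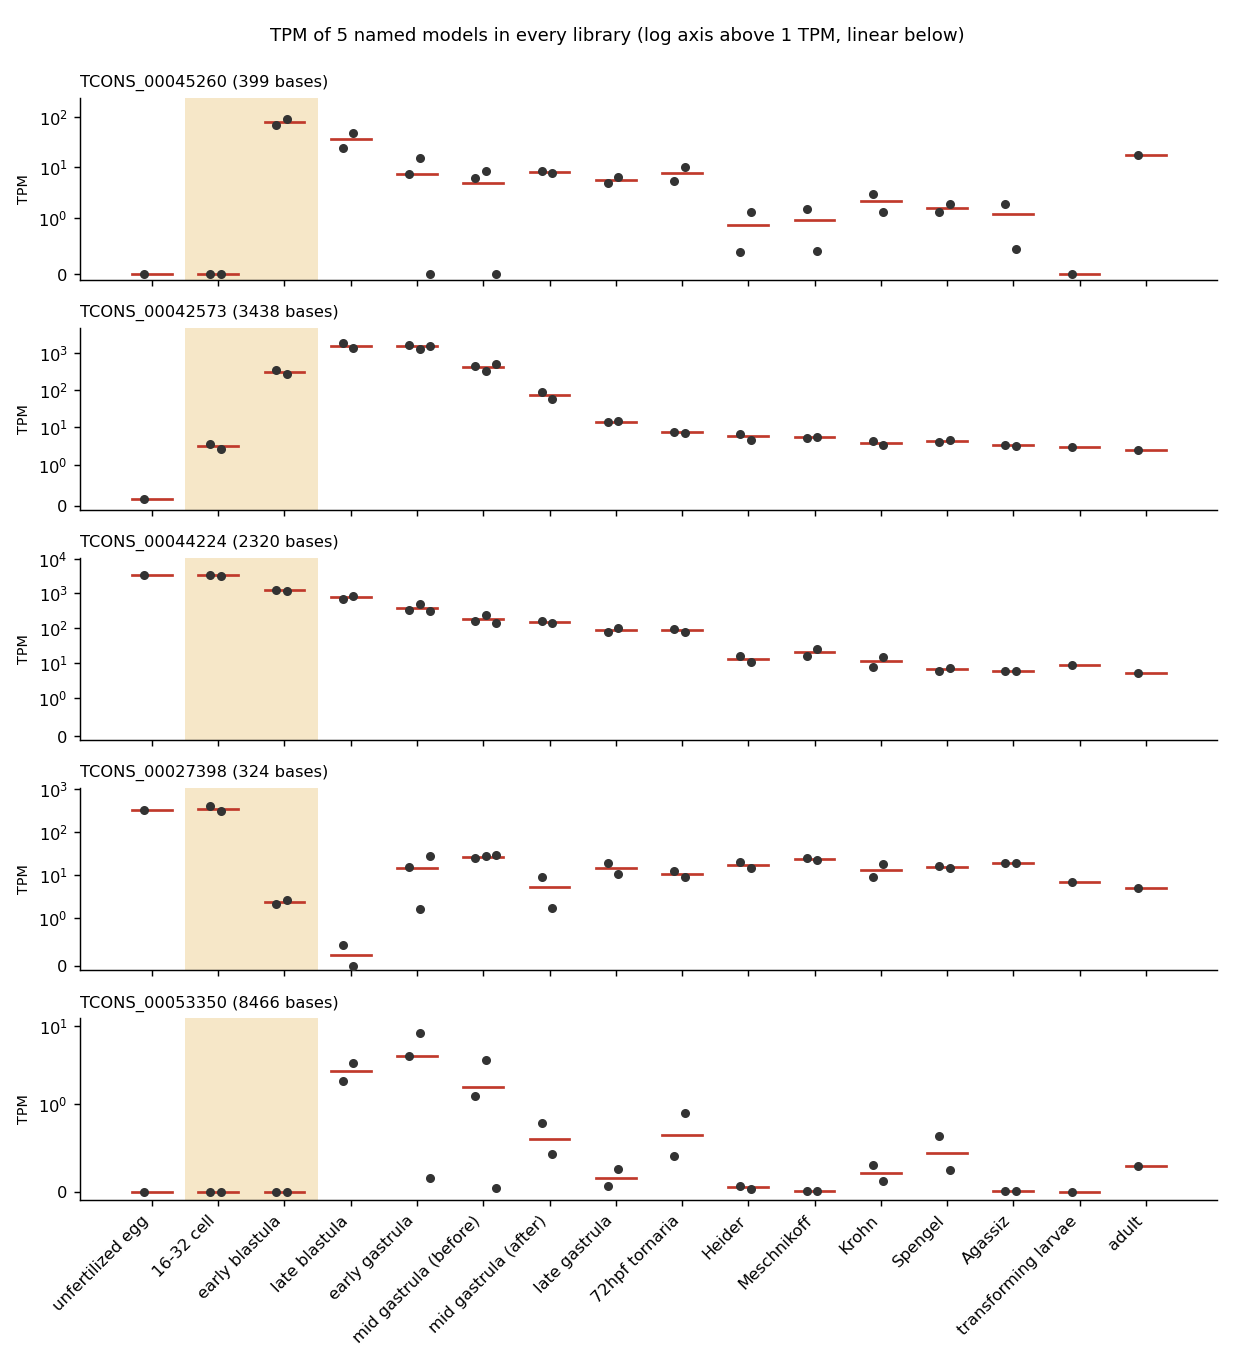
Each point is the TPM of a model in 1 library (log axis above 1 TPM, linear below) over the 16 stages, red lines are stage means, and the shaded band marks the 16-32 cell and early blastula stages. TCONS_00045260 goes from 0 to 68.0 and 92.1 TPM and is lower in each later library. TCONS_00042573 goes on rising to the late blastula, and TCONS_00053350 is at 0 in the band and appears in the late blastula.

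The absent models that reached 1 TPM were mostly still present in the late blastula, and fewer of them in larvae than in gastrulae. Of the 402, 89.6% had a mean of 1 TPM or more in the late blastula, 78.4% in the early gastrula, 72.4% in the late gastrula, 63.7% at Heider and 54.5% in the transforming larvae. The adult library had 59.0%. Their median level was 2.11 TPM in the early blastula, highest in the late blastula (3.30 TPM), 2.76 TPM in the late gastrula and 1.52 TPM at Agassiz. At all 13 later stages 119 models stayed at 1 TPM or more, and 8 were below 1 TPM at every one of them. In 51 models 1 TPM was reached in a gastrula stage and in no larval stage from 72 hpf (hours post fertilization) tornaria to Agassiz. Over all 30661 models tested, these 3 counts were 12970, 1655 and 521. Since the models were chosen for at least 1 TPM in the early blastula, some decline from that stage follows from the choice.

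Most of them had their highest level after the early blastula. That stage was the highest for 10.7% of them, against 2.33% of all models tested, and they were chosen for their level there. The stage with the highest mean TPM was the early blastula for 43 of the 402 models, the late blastula for 75, a gastrula stage for 94, a larval stage for 112 and the transforming larva or adult for 77. The last 3 of these counts each pool more than 1 stage. The egg was highest for 1. When absence was judged without 16-32 cell replicate 2, 75 of the 753 models that then reached 1 TPM had their peak in the early blastula. Among the 30 models at 10 TPM or more, 18 peaked in the early or late blastula, 8 in the gastrula and 4 in the larva. These 30 had a median of 18.4 TPM in the early blastula, 27.1 TPM in the late blastula, 15.4 TPM in the late gastrula and 1.70 TPM at Agassiz.

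The presence of these models differed between gastrula libraries. In the early gastrula, 75.6% and 77.1% of the 402 models were at 1 TPM or more in replicates 1 and 2 and 64.4% in replicate 3. In the mid gastrula before mesoderm migration the values were 73.1% and 75.1% in replicates 1 and 2 and 64.7% in replicate 3, again the lowest. Of the present models called higher, 87.9%, 88.9% and 85.7% were at 1 TPM or more in the early gastrula libraries and 87.6%, 89.0% and 86.7% in the mid gastrula ones, so that replicate 3 was lowest there too, by a smaller margin. The absent class as a whole held its largest share of TPM in replicate 3 at both stages (1.27% and 2.76%).

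The other absent models, 12715 that stayed under 1 TPM in the early blastula, reached that level later or not at all: 4538 were under 1 TPM at every later stage. The share at 1 TPM or more was 3.86% in the late blastula, 13.7% in the late gastrula, 26.5% at Heider, 35.1% at Spengel, 32.9% at Agassiz and 42.8% in the adult. It was lower than at the stage before in the mid gastrula after mesoderm migration (10.7% to 9.86%), at Meschnikoff (3368 to 3173 models) and at Agassiz. As a group they held 0.0635% of TPM in the early blastula, 3.05% in the late gastrula and 21.6% in the adult library. Their highest stage was the transforming larva or adult for 6217 and a larval stage for 5056.

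Present models that rose mostly stayed detectable at 1 TPM or more, while levels moved. At 1 TPM or more were 86.0% of the 4574 in the early blastula and between 82.0% (transforming larvae) and 89.7% (Heider) at each later stage, and 3130 were at 1 TPM or more at all of them. Their median TPM went from 0.963 in the egg and 0.771 in 16-32 cell embryos to 6.50 in the early and 9.17 in the late blastula, and then stayed between 7.29 and 11.0. From early to late blastula the mean TPM was at least 2-fold higher in 1079 of them and at most 0.5 times as high in 197. Their share of TPM was highest in the early gastrula (32.6%) and was 19.6% in the adult. For 302 of them the early blastula was the highest stage.

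Of the 4067 models that fell, 62 were under 1 TPM at every later stage. Their median was 11.6 TPM in the egg and 21.4 TPM in 16-32 cell embryos. It was 5.32 TPM in the early and 4.79 TPM in the late blastula, the lowest stage, then 7.14 TPM in the early gastrula and 11.4 TPM at Heider. At the 16-32 cell stage 93.9% were at 1 TPM or more, against 76.6% in the late blastula and 93.4% at Heider. Of the 4067, 590 went from at least 1 TPM to below 1 TPM between the 2 stages compared, and 538 of these reached 1 TPM again in at least 1 larval stage. That level was reached in a larval stage by 3958 of all 4067 and by 26086 of the 30661 models tested. Since the 590 were chosen for a low early blastula level, some return follows from the choice. The egg or the 16-32 cell stage was the highest stage for 2381 of the 4067.

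**Figure D5:**
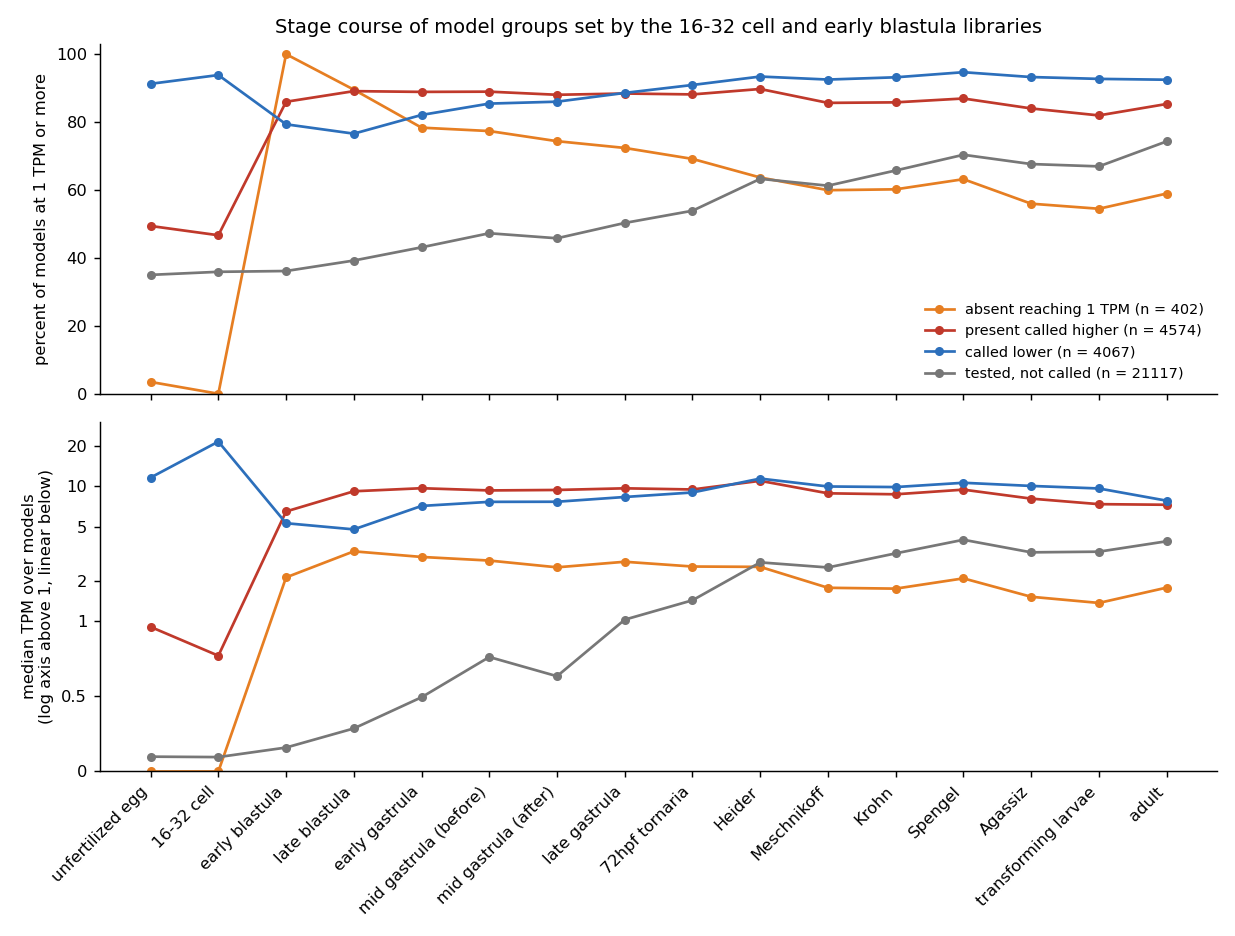
Lines give, over the 16 stages, the percent of models with a stage mean of 1 TPM or more (top) and the median TPM over models (bottom, log axis above 1 and linear below) for absent models that reached 1 TPM (orange), present models called higher (red), called lower (blue) and tested but not called (grey). The orange line goes from 100% in the early blastula, where it was chosen, to 54.5% in the transforming larvae, and the blue line is lowest in the late blastula.

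Contrasts between later stages were fitted in the same model, with the absent class set by the 16-32 cell libraries alone. Absent models were tested only where their counts at other stages passed the filter on low counts. From early to late blastula, 278 of 8742 tested absent models were called higher (3.18%) and 6 lower (0.0686%), against 6.2% and 6.65% of all models tested (12.8% in either direction). The contrast shares its early blastula libraries with the main one. Of the 13117 absent models, 9135 had 0 counts in both early blastula libraries and could not fall from there. The shares called lower therefore do not compare like with like. The 278 became 119 and 143 without early blastula replicate 1 and 2 and 168 without late blastula replicate 1, and the 6 became 1 without late blastula replicate 2. From late blastula to early gastrula, 362 absent models (4.14%) were called higher and 51 (0.583%) lower, against 6.28% and 2.59% of all (8.87% in either direction). The 362 became 206 and 187 without late blastula replicate 1 and 2. The 51 became 19 and 29 without these and 32 without early gastrula replicate 3.

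Between the means of the larval and of the gastrula stages, 3795 absent models (43.4%) were higher in larvae and 651 (7.45%) lower, against 29.8% and 18.1% of all models tested (47.9% in either direction). Absent models could pass the filter on low counts only through other stages, larval ones included, so these shares do not compare like with like. The median log2 fold change of all tested models in this contrast was 0.38, and 0.63 and 0.64 with DESeq2 size factors and library totals. The absent models tested had a median of 2.04. The 365 tested absent models that had reached 1 TPM in the early blastula had a median of -0.82, with 34 higher and 156 lower in larvae. They were chosen by their early blastula level too, so these values are a description.

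TCONS_00053350, of 8466 bases, had the largest rise from early to late blastula among absent models with at least 10 CPM in the late blastula. The model was chosen by the size of this rise, so its p-values are a description. It had 0 counts in the egg, both 16-32 cell and both early blastula libraries, and 168 and 280 counts in the late blastula (1.96 and 3.40 TPM). The edgeR adjusted p was 0.00575, and 0.0585 and 0.0557 without early blastula replicate 1 and 2. In the early gastrula it had 347 and 650 counts in replicates 1 and 2 and 15.3 in replicate 3. In the mid gastrula before mesoderm migration it had 109 and 329 counts and then 4.57 in replicate 3, the lowest library of both stages. No absent model met the same rule for a fall from early to late blastula.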

How the data were processed

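RNA of whole animals was measured by polyA-selected, strand-specific sequencing, per the labels' protocols. The deposited tables hold, for each library, estimated counts (also called expected counts, which need not be whole). They also hold TPM as deposited by the authors, and, per the file headers, the length and effective length of each model. kallisto and edgeR are named in the submitters' processing notes, and no version, build or source of the models is given there. Titles gave the stage and the replicate number.

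Estimated counts were rounded to whole numbers. The test used edgeR 4.0.16 under R 4.3.3, with limma 3.58.1 for an alternative: filterByExpr by stage, TMM scaling, trended dispersion and a quasi-likelihood fit with 1 coefficient per stage over all 31 libraries (15 residual degrees of freedom), without a replicate block. The test was checked on simulated data. With 2 libraries against 2, an exact two-sided permutation test cannot go below p = 0.333, so none was used. DESeq2 1.42.0 served as an alternative. Descriptions used Python 3.11.15 with pandas 2.3.3, and figures matplotlib 3.10.9. The members and lists were chosen with earlier results of these data known.

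Models were named by a rule: the absent model called higher with the highest early blastula TPM, the largest called rise and fall among models with at least 10 CPM at the 16-32 cell stage, the called fall with the highest 16-32 cell TPM, and the largest called rise and fall from early to late blastula among absent models with at least 10 CPM on the higher side, all without overlap between libraries. Alternatives covered scaling, filter, test, pseudocount, fold threshold, libraries left out and the definition of absence. Near-identical models share reads, so their levels are uncertain.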

Additional observations from a re-analysis of the deposited data

Results flagged for a closer look

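The egg library lies outside the comparison of the 2 stages, and it held signal in models defined as absent. Of the 13117 models at 0 counts in both 16-32 cell libraries, 174 had more than 3 counts in the egg library, above the limit that a count of 0 allows. The highest had 39.8 estimated counts, and the highest TPM was 15.8. Of the 402 absent models that reached 1 TPM in the early blastula, 26 had more than 3 egg counts and 14 had at least 1 TPM in the egg. The egg has 1 library, so these values have no replicate check.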

How the results depend on the processing

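The 14 alternatives tried for models that fell gave 3436 to 5163 calls, within 1.5 times of the 4067 reported. Of 15 tried for models that rose (3571 to 6309 calls), limma on log2(TPM + 1) moved the count beyond that, to 3571. Same-numbered libraries of the 2 stages did not deviate together (r = -0.0060 across models), and the labels do not say that a number marks a shared culture. With the replicate number as a block on the 4 libraries compared, 4916 rose and 3994 fell, against 4949 and 4014 without the block.

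Results on absent models depended on their definition. With 3 summed counts or fewer counted as absent, 1083 models reached 1 TPM, the class held 0.675% of early blastula TPM, the median length was 825 bases and 96 peaked in the early blastula. With under 0.5 TPM at the 16-32 cell stage in place of 0 counts, a definition added after the data were seen, the class had 20851 models, of which 1905 reached 1 TPM and 151 peaked in the early blastula; it held 1.40% of TPM and the median length was 1373 bases. With 0 required in the egg too, the class held 0.173% and the median length was 612 bases. At 5 TPM in place of 1, 73 models remained, of 576 bases, and 10 peaked in the early blastula. With 10 counts in each library the median length was 1282.5 bases, and with models of at least 500 bases alone 986.

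Leaving out 1 library in turn gave 377 to 753 models at 1 TPM, 0.220% to 0.474% of TPM, median lengths of 675 to 822 bases and 46 to 75 peaks. In the later contrasts, with libraries chosen after the data were seen, it gave 119 to 250 rises and 1 to 5 falls from early to late blastula, and 187 to 388 rises and 19 to 65 falls from late blastula to early gastrula. The 4 models named for the 2 stages were called by all 12 other fits tried, and the rise of TCONS_00053350 by 5 of 7. Why results moved was not tested. Depth limits the absent class most in short models.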

Other observations

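Of 9837 tested models with 0 counts in the 1 egg library, 12 were called lower in the early blastula than at the 16-32 cell stage, 11 of them by at least 8-fold. Falls of at least 8-fold were called in 213 of 5659 tested models at 1 to 10 TPM at the 16-32 cell stage, in 244 of 6321 at 10 to 100 TPM and in 51 of 1535 at 100 TPM or more. Rises of at least 8-fold were called in 307, 37 and 0 of these.

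The 2 early blastula libraries also differed from each other in the size of the gain. Present models called higher held 15.3% of TPM in replicate 1 and 17.6% in replicate 2, models called lower held 6.27% and 5.66%, and absent models held 0.220% and 0.260%. In each of these groups replicate 2 was the further from the 16-32 cell libraries. In the late blastula libraries the rising group held 30.8% and 31.1%, and the absent models 0.698% and 0.559%.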
